A study of Rattus norvegicus with 10 samples.

Results

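The tiles described here are stretches of 1000 bp with intermediate DNA methylation that rose and fell from rat to rat with the mean methylation of the whole library. They were chosen by 4 conditions: a place on chromosomes 1 to 20 with a value in all 10 rats, a mean of 20 to 80% over the rats, a gap between the highest and the lowest rat over 15 and under 60 percentage points, and a Pearson r of at least 0.9 across the 10 rats with the rat mean. The rat mean is the average of one rat over the 126459 complete tiles, those without a gap in any of the 10 columns. Of 176032 tiles in the series, 386 met all conditions and are called tracking tiles. Without the condition on r there were 41453 candidate tiles, so that tracking tiles made up 0.931% of them. Level, range and relation to the rat mean were thus used in the choice, and their values below are a description of the chosen tiles, not a test.

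DNA methylation is the addition of a methyl group to cytosine, in mammals mostly where a guanine follows (CpG). Many CpG-rich promoters carry almost none of it, and most CpGs elsewhere carry it in nearly all cells. A tissue average between these extremes arises where cells, alleles or neighbouring CpGs differ, as at many distal regulatory regions. Such regions are known to vary between cell types and with age, and a hippocampal sample averages neuronal, glial and vessel DNA.

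The study profiled hippocampal DNA by RRBS, which cuts DNA at MspI sites before bisulfite treatment and so samples CpG-rich fragments. The animals were bred from one genetically heterogeneous N:NIH stock toward a low (LCR) or a high (HCR) intrinsic running capacity and belonged to generation 44. All were females aged 23 to 24 months kept in standard cages with no running wheel or structured exercise training, and no treatment is described. The study also put its animals through a treadmill test of maximal oxygen uptake and learning sessions in a water maze. There were 4 HCR (rats 1, 11, 15 and 19) and 6 LCR (rats 12, 18, 22, 24, 26 and 30). Further HCR rats, which the study dropped at quality control, were not used here. Each library stands for a single rat and is 1 replicate of its line, and the depth behind each percentage is unknown. Libraries were pooled before bisulfite treatment and amplification. A pool held fewer libraries than the study had animals, so there was more than 1 pool. Which libraries shared a pool is not given in the sources used here, and the part of the pool in the values was not tested. By the study's account, neither library preparation nor sequencing had separate batches. A methylation table holds no marker expression against which the tissue could be checked.

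The rat mean took an uneven course over the rats. LCR rat 30 was lowest at 43.9%, followed by LCR rats 12, 22 and 26 at 45.3, 45.6 and 45.8% and by HCR rats 15 and 1 at 46.2 and 46.8%. After a gap of 2.27 points came LCR rat 18 at 49.0%, HCR rat 11 at 49.6%, LCR rat 24 at 49.8% and HCR rat 19 at 51.3%. Rats of both lines thus lay on each side of the gap, and every correlation over the 10 rats below spans it.

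Averaged over the 386 tracking tiles, methylation moved over a far wider span. It was 28.9% in LCR rat 30, 34.0% in LCR rat 12, 35.7% in LCR rat 22 and 36.6% in LCR rat 26. HCR rats 15 and 1 followed at 37.2 and 40.3%. LCR rat 18 reached 51.0%, HCR rat 11 53.3%, LCR rat 24 54.1% and HCR rat 19 60.6%. The order of the rats was that of the rat mean throughout, and the gap between HCR rat 1 and LCR rat 18 had widened to 10.7 points. In single tiles, HCR rat 19 was the highest of the 10 rats in 273 of 386 (70.7%) and LCR rat 30 the lowest in 237 (61.4%). Among all candidate tiles the same rats were highest in 25.4% and lowest in 22.1%. The spread between tiles within a rat was also wide, the quartiles of the tiles being 18.4 and 38.5% in LCR rat 30 and 47.6 and 72.5% in HCR rat 19. The remaining 41067 candidate tiles had a mean of 45.4% in LCR rat 30 and 59.6% in HCR rat 19.

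**Figure D1:**
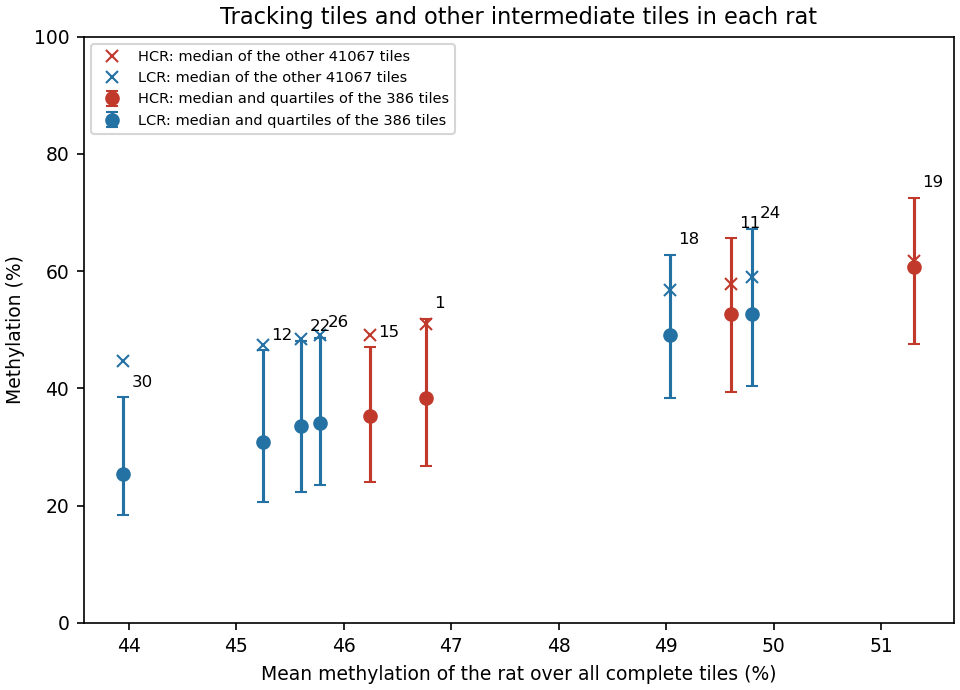
Methylation of the 386 tracking tiles in each rat (points, median; bars, quartiles over tiles) and of the other 41067 candidate tiles (crosses, median), against the mean of the rat over all complete tiles, with HCR in red and LCR in blue and rat numbers above the bars. The medians of the tracking tiles climb from 25.4% in LCR rat 30 to 60.7% in HCR rat 19, and those of the other candidates from 44.7 to 61.7%.

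The slope says by how many points a tile moved per point of rat mean. Its median over the tracking tiles was 4.20, with a range of 1.73 to 8.46, and the quartiles were 3.32 and 5.34. The standard error of a single slope had a median of 0.625 (n = 10 rats). Over all candidates the median slope was 1.92, and 90.9% of them had a slope above 0. A steep slope alone did not make a tracking tile. The 2614 tiles at 20 to 80% with a range of 60 points or more had a median slope of 4.33, but a median r of 0.490 and a residual SD of 19.2 points around their own line. In tracking tiles that residual SD had a median of 4.53 points, and in candidates of 8.96. By rank, the tracking tiles had a median Spearman's rho of 0.879 with the rat mean and a lowest rho of 0.648. Closeness to the rat mean was a matter of degree among the candidates, of which 6.35% had an r from 0.8 to 0.9 and 12.0% from 0.7 to 0.8. In the opposite direction, 1 candidate reached an r of -0.9 or lower.

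Intermediate tiles carried most of what moved the rat mean. Complete tiles at 20 to 80% over all sequences made up 37.8% of the complete tiles and gave 75.8% of the slope of the rat mean on itself, their class average changing by 2.01 points per point. Tiles at 5 to 20% and at 80 to 95% moved by 0.875 and 0.490 points per point and gave 10.98% and 12.2%. Tiles under 5% and tiles at 95% and over moved by 0.0368 and 0.0435 points per point, with little room next to 0 and 100%. Since the class averages sum to the rat mean, these shares divide it and are not independent of it.

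**Figure D2:**
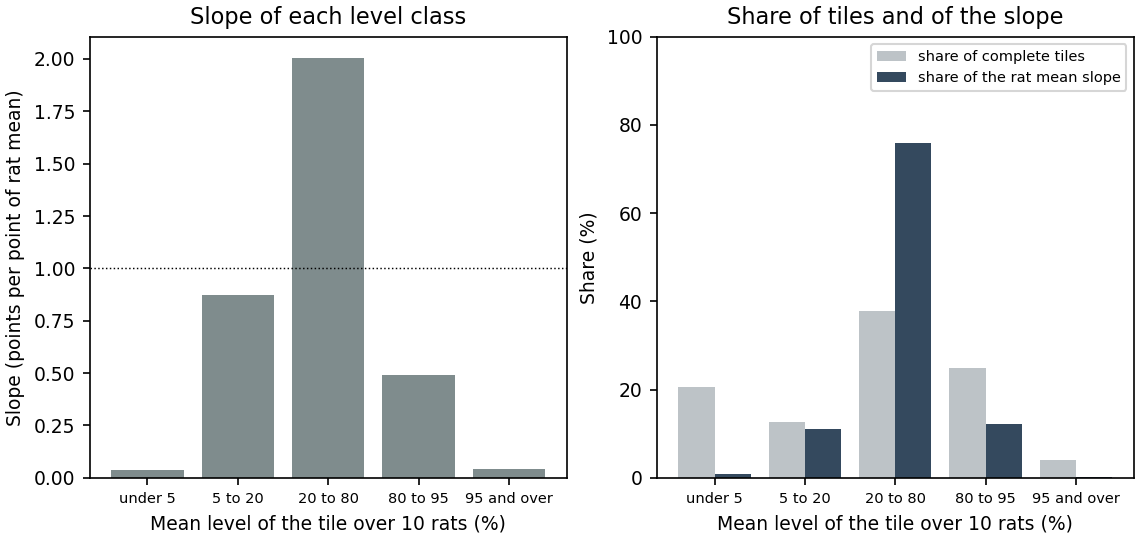
Left, change of the average of each level class in points per point of rat mean, with a dotted line at 1; right, the share of complete tiles in each class (light) beside its share of the rat mean slope (dark), both in percent. The class at 20 to 80% stands at 2.01 points per point and holds 75.8% of the slope with 37.8% of the tiles.

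Within the range of 20 to 80%, the tracking tiles were found more often at lower levels. They made up 1.40% of the 6849 candidates at 20 to 30%, 1.32% at 30 to 40% and 1.35% at 40 to 50%. The share was 1.09% at 50 to 60%, 0.530% at 60 to 70% and 0.247% of the 9304 candidates at 70 to 80%. Their median level was 41.5%, against 52.8% in candidates. Slopes were steepest in the middle, with a median of 5.02 at 50 to 60%, 3.70 at 20 to 30% and 3.25 at 70 to 80%, and candidates had the same shape at a lower height, from 2.37 at 40 to 50% down to 1.40 at 70 to 80%. The range between rats took little part. The share of tracking tiles lay between 0.735 and 1.08% in each step of 5 points from 15 to 60.

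**Figure D3:**
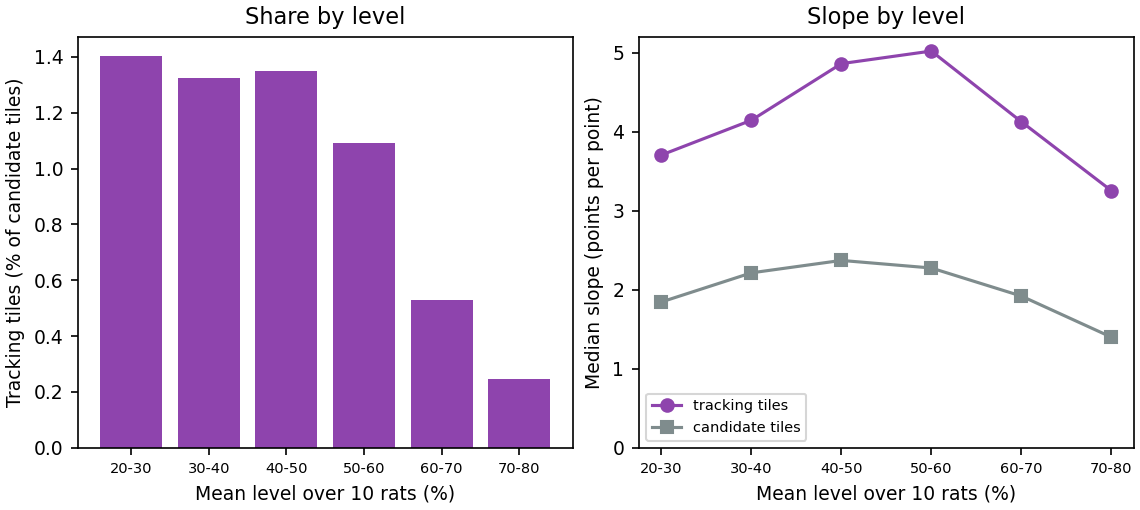
Left, tracking tiles as percent of the candidate tiles in steps of 10 points of mean level; right, median slope in points per point of rat mean of tracking tiles (circles) and of candidate tiles (squares) in the same steps. The share falls from 1.40 to 0.247%, and both slopes are highest between 40 and 60%.

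The tracking tiles were scattered over all 20 autosomes. Chromosome 1 held 44 of them, chromosome 5 37, chromosome 3 36 and chromosome 10 34, and chromosome 11 held the fewest with 8. As a share of candidates they ranged from 0.646% on chromosome 7 and 0.650% on chromosome 17 to 1.17% on chromosome 3 and 1.22% on chromosome 15, small counts being behind each. Pairs of tracking tiles close to each other were few. Successive tiles were at most 1000 bp apart, start to start, in 1 case, at most 10000 bp in 3 and at most 100000 bp in 11. The adjacent pair lies on chromosome 3 of mRatBN7.2 from 155599001 to 155601000, with slopes of 4.19 and 5.37. The other pairs within 10000 bp were on chromosome 5, at 3043001 to 3044000 and 3050001 to 3051000, and on chromosome 8, at 57283001 to 57284000 and 57286001 to 57287000.

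In the number of nearby tiles their surroundings resembled those of other candidates. In the 50000 bp on either side of a tracking tile the table had a median of 12 other tiles, against 13 around candidates, and 57.5% of the tracking tiles had no adjacent tile, against 59.3%. Candidate tiles next to a tracking tile had slopes near those of candidate tiles next to other candidates. Candidate tiles directly adjacent to one, 75 when counted once per neighbour, had a median slope of 1.97 (quartiles 1.24 and 3.02). Those adjacent to other candidates, 7683 by the same count, had 1.91 (quartiles 1.03 and 2.91). Tracking tiles are candidates too, so the 75 hold the adjacent pair on chromosome 3. At 2000 to 5000 bp the medians were 2.11 and 1.95, and at 51000 to 100000 bp 1.88 and 1.91. Over all complete tiles, candidates or not, slopes were higher close to tracking tiles. The median was 1.42 directly beside them and 1.12 beside other candidates. It was 0.944 and 0.706 at 2000 to 5000 bp, 0.627 and 0.660 at 21000 to 50000 bp, and 0.658 and 0.637 at 51000 to 100000 bp. The mix of tiles differed as well, candidates being steeper than other tiles. They were 75 of 136 adjacent tiles beside tracking tiles and 7683 of 14613 beside other candidates. At 2000 to 5000 bp they were 161 of 344 and 15181 of 38405. The part of this mix in the medians was not tested. All these tiles come from the same 10 libraries, so the comparison is a description.

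Few of the tracking tiles could be placed in a gene. Genes were taken from rows of the study's own lists of differentially methylated tiles, one list being used in its first 1999 lines only. The rows used cover 2347 tiles, 1432 of them with a gene. A tracking tile listed beyond them would not be seen here. Among these rows were 803 of the 41453 candidates and 1 tracking tile. It lies in an exon of Pxdn, in the open sea, that is away from CpG islands, on chromosome 6 from 46622001 to 46623000. Pxdn encodes peroxidasin, which cross-links collagen IV in basement membranes. The Pxdn tile was at 80.9, 83.8, 81.3 and 92.6% in HCR rats 1, 11, 15 and 19. In LCR rats its lowest value was 68.8%, its median 72.6% and its highest 83.8%. The lines overlapped only at their edges, LCR rats 24 and 18 reaching into the HCR range or just below it. With a mean of 78.7% it was the tracking tile of the highest level, and its slope was 2.79 with a standard error of 0.473. It came onto the study's list by a difference between the lines in these rats.

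Another pair of tracking tiles lies between listed tiles of a single gene, and so inside that gene. One is in Camta1, which encodes a calmodulin-binding transcription activator, on chromosome 5 from 161931001 to 161932000. HCR rats 1, 11, 15 and 19 had 23.6, 34.4, 36.6 and 57.6% there, and LCR rats 13.8% at the lowest, 25.6% at the median and 46.4% at the highest. HCR rat 19 stood above all others, while the remaining rats of the lines were mixed. The other is in Tenm2, which encodes a teneurin of synaptic adhesion, on chromosome 10 from 21160001 to 21161000. HCR rats had 48.8, 55.7, 38.8 and 66.6% in the same order and LCR rats 36.9 to 58.2% with a median of 43.3%. The slopes were 4.93 in Camta1 and 3.61 in Tenm2.

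A further set of landmarks came from listed tiles with a gene within 20 kb, start to start, which 31 tracking tiles had. The landmark says that the gene is near, not that the tile belongs to it. On the lists of genes and cell type markers, 4 genes served as landmarks and 0 held a tracking tile. Near Itgam, which encodes the CD11b integrin chain of microglia, a tile on chromosome 1 from 182657001 to 182658000 had an r of 0.965 with the rat mean, at 74.6, 87.2, 69.4 and 89.6% in HCR rats 1, 11, 15 and 19 and 67.4 to 87.9% in LCR rats. Its landmark, an exonic tile, is 10 kb away. Near Cldn5, a claudin of endothelial tight junctions, a tile on chromosome 11 from 82215001 to 82216000 ran from 15.1% in LCR rat 30 to 33.1% in HCR rat 11, at 3 kb from an exonic tile. These are marker genes of glia and of vessels, and each contributed a single tile.

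Near Plagl1, an imprinted zinc finger gene, a tile on chromosome 1 from 7477001 to 7478000 was at 18.5, 37.2, 14.6 and 44.2% in HCR rats 1, 11, 15 and 19 and at 15.7 to 38.3% in LCR rats. Its landmark is a tile 1 to 5 kb upstream of the gene, at 4 kb. The tile lay low in 4 of 6 LCR rats and in HCR rats 1 and 15, as the rat mean did. Near Cacna1d, an L-type calcium channel gene, a tile on chromosome 16 from 5323001 to 5324000 was at 16.9, 39.9, 26.8 and 48.3% in these HCR rats and at 15.5 to 39.3% in LCR rats, 16 kb from an intronic tile. In both tiles the lines overlapped over most of their range. The other lists, among them DNA methylation machinery, glutamate receptors, axon guidance, MAPK genes and markers of neurons, astrocytes and oligodendrocytes, had annotated tiles for 0 to 10 genes each, so that the lack of tracking tiles in them says little.

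Counting Cldn5, 7 tracking tiles were at most 3 kb from a listed tile with a gene. A tile beside an exonic one of Klhl8, a Kelch adaptor gene, on chromosome 14 from 5839001 to 5840000 had the slope 4.62 and ran from 55.7% in LCR rat 30 to 95.3% in HCR rat 19. Next to an intronic tile of Spsb4, a SOCS box gene of ubiquitin ligases, a tile on chromosome 8 from 97595001 to 97596000 had the slope 2.95. The tile at Clybl, a mitochondrial lyase gene, on chromosome 15 from 99372001 to 99373000 had 3.27. Matrix genes were the landmarks of another pair. A tile near Col16a1, a collagen gene, on chromosome 5 from 142384001 to 142385000 had the slope 3.78, and one near Ltbp4, which binds latent TGF-beta, on chromosome 1 from 82621001 to 82622000 had 3.30. Near Galnt6, an enzyme gene of O-glycosylation, a tile on chromosome 7 from 131799001 to 131800000 had 7.33, running from 12.3% in LCR rat 22 to 59.9% in HCR rat 19. Of the 7 it was the steepest, and the tile at Cldn5 was the flattest with 2.55.

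The closest follower of the rat mean lies on chromosome 12 from 31991001 to 31992000, 6 kb from an intronic tile of Tctn2, a gene of the ciliary transition zone. HCR rats 1, 11, 15 and 19 were at 73.5, 79.3, 72.0 and 87.1%, and LCR rats 12, 18, 22, 24, 26 and 30 at 70.2, 81.5, 67.6, 83.9, 68.6 and 64.7%. The r was 0.980, the slope 3.09 with a standard error of 0.220, and the residual SD 1.59 points. A tile on chromosome 20 from 7171001 to 7172000 came next, with an r of 0.979. It was at 36.5, 49.4, 39.4 and 55.1% in the HCR rats and at 36.1, 48.1, 33.97, 47.4, 36.96 and 28.7% in the LCR rats in the same orders. In both tiles the lines were interleaved, each rat near the place its own mean gave. The 10 tiles of highest r had an r of at least 0.962 and slopes of 3.03 to 7.11. The steepest of these 10, on chromosome 4 from 84209001 to 84210000, was at 20.2, 42.5, 10.7 and 57.7% in the HCR rats and at 12.1, 42.5, 19.1, 37.0, 16.4 and 2.38% in the LCR rats, so that it was nearly unmethylated in LCR rat 30 and over 50% in HCR rat 19. On chromosome 3 from 17300001 to 17301000, with a slope of 5.12, methylation went from 40.6% in LCR rat 30 to 80.6% in HCR rat 19.

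The steepest tile, on chromosome 9 from 40464001 to 40465000, had a slope of 8.46 with a standard error of 1.32. HCR rats 1, 11, 15 and 19 were at 51.2, 63.3, 25 and 70.6%, and LCR rats ranged from 17.8% in rat 22 over a median of 27.9% to 74.3% in rat 18. It was spread around its line by a residual SD of 9.55 points, the largest among the 386. The flattest, on chromosome 3 from 156723001 to 156724000, had a slope of 1.73 with a standard error of 0.270. It was at 65.5, 66.6, 62.6 and 71.5% in the HCR rats and from 56.0 to 69.4% with a median of 63.6% in LCR rats. Just inside the limit of 0.9, tiles on chromosomes 18, 13 and 14 had slopes of 4.35, 5.43 and 3.32, and just outside it, with an r of 0.8998, 0.8997 and 0.8996, tiles on chromosomes 10, 1 and 4 had 2.47, 5.99 and 5.95. The limit divided tiles of nearly the same r.

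The single candidate with an r of -0.9 or lower lies on chromosome 2 from 148588001 to 148589000. It was at 81.9 and 80.5% in HCR rats 1 and 15 and at 58.3 and 55.7% in HCR rats 11 and 19. LCR rats 12, 22, 26 and 30 had 80.4, 79.9, 78.1 and 81.6%, and LCR rats 18 and 24 had 56.8 and 60.5%. Its values fell into a high and a low set with a gap between them, and its slope was -4.52 with an r of -0.930.

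Because the 10 rats chose the tracking tiles, no rat is left in which to measure their slope anew. Instead, tiles were chosen in the same way on fewer rats, and their slope was measured in the rats left out. With each rat left out in turn, the conditions were applied to the other 9, and 384 to 707 tiles were chosen, with median slopes of 4.09 to 4.86 in those 9. In the rats left out, the mean of the chosen tiles moved by 2.45 points per point of rat mean. All candidates of the same 9 rats moved by 1.99 in the rats left out, close to their median slope of 1.94 to 1.97 in the 9. The left-out rat lay on the side of the others that its rat mean predicted in 10 of 10 cases for both sets. The size was another matter. HCR rat 19 was predicted at 66.1% from the tiles chosen without it and had 54.7%, and LCR rat 30 was predicted at 24.4% and had 34.7%. For the candidates the predictions were 60.7% against 60.6% measured in HCR rat 19, and 44.2% against 44.6% in LCR rat 30. Intermediate tiles make up most of the slope of the rat mean, so that closeness and side are nearly given in advance for the candidates, and their values serve only as a scale. The chosen tiles are candidates too, so the side says little about them either. Of the 386 tracking tiles, 161 (41.7%) were chosen again without HCR rat 19, which is 41.9% of the tiles chosen then, and 227 (58.8%) without LCR rat 30, or 46.8% of those.

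**Figure D4:**
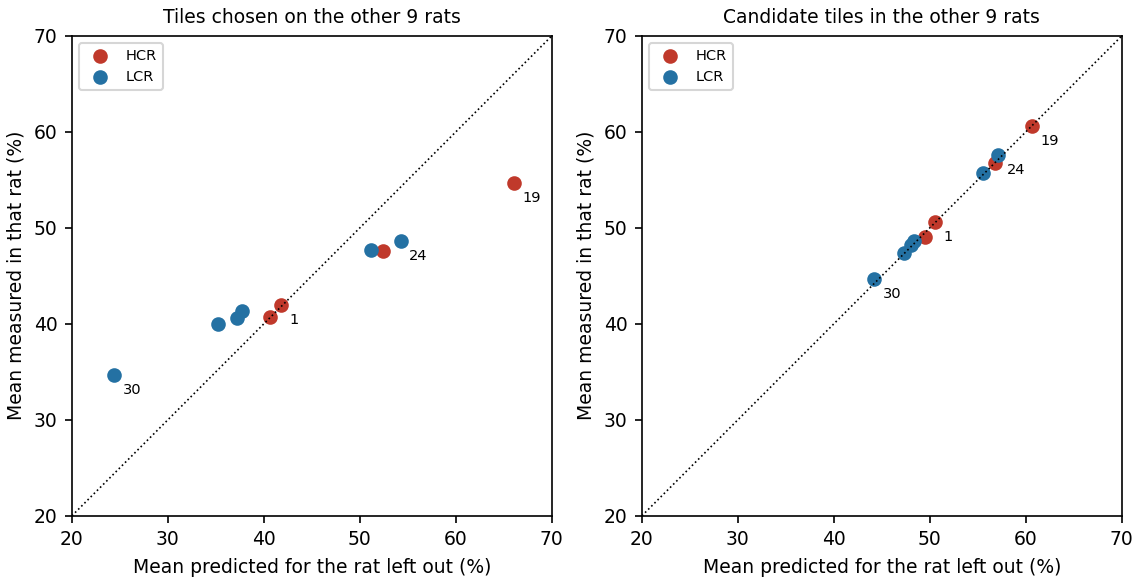
Mean methylation measured in each rat left out, in percent, against the mean predicted from the other 9 rats and the rat mean, for tiles chosen on those 9 rats (left) and for all candidate tiles in them (right), HCR in red and LCR in blue, with the line of equality dotted and rats 1, 19, 24 and 30 numbered. On the left HCR rat 19 lies below the line, at 54.7 against 66.1%, and LCR rat 30 above it, at 34.7 against 24.4%, and on the right all 10 rats lie next to it.

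The same was seen between the lines. Applied to the 6 LCR rats alone, the conditions gave 2214 tiles with a median slope of 4.65 among LCR rats. In the 4 HCR rats, which took no part, these tiles had a median slope of 2.49, and 87.1% of them had a slope above 0. The 38205 candidates of the LCR rats had a median slope of 1.92 in HCR rats, with 79.6% above 0. The chosen tiles were at 42.2 and 44.2% in HCR rats 15 and 1 and at 51.7 and 56.1% in HCR rats 11 and 19, again in the order of the rat mean. All candidates of the LCR rats had the same order, at 50.4, 52.1, 57.9 and 61.4%. The slope of 4.20 in the tracking tiles is therefore that of the rats which chose them, and in rats not used it was nearer to that of the candidates.

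Tiles outside the autosomes gave a look at DNA that the conditions left out. On X, 1455 complete tiles at 20 to 80% averaged 48.7% in LCR rat 30 and 59.2% in HCR rat 19. Their average followed the rat mean in 10 rats with a Pearson's r of 0.990 and a Spearman's rho of 0.988. Each had a 2-sided permutation p of 1e-05, the smallest that 100000 permutations can give, and an adjusted p of 5e-05 among 5 relations tested. Without HCR rat 19 and LCR rat 24, the rats farthest from the median, r was 0.992, and within the 6 LCR rats it was 0.991. X tiles form a small part of the tiles behind the rat mean. Under the same limits of level and range, 22 of 1248 X tiles (1.76%) had an r of at least 0.9, against 0.931% on the autosomes. On unplaced sequences it was 0 of 60. The typical X tile within these limits followed the rat mean less than the autosomal one. The median r was 0.440 on X against 0.485 on the autosomes, and the median slope 1.47 against 1.92.

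The remaining readouts of the libraries were looked at with the same permutation test. Mitochondrial DNA, which is nearly free of CpG methylation and so gives a level near the floor of the assay, was at 0.449% in LCR rat 26 and 1.22% in LCR rat 24, and no relation to the rat mean passed the test. Pearson's r was 0.147 (permutation p = 0.681, adjusted 0.681), rho was 0.139 (permutation p = 0.707, adjusted 0.707), and r fell to 0.00437 when HCR rat 19 and LCR rat 24 were left out. Complete tiles under 5% ran from 1.49% in LCR rat 26 to 1.95% in HCR rat 19, higher with a higher rat mean by rank, with a rho of 0.758 (permutation p = 0.0141, adjusted 0.0335), while Pearson's r of 0.651 did not pass after adjustment (permutation p = 0.0391, adjusted 0.0652). That span is small beside the span of the tracking tiles. With both of these rats left out, 8 rats remained and rho was 0.667 (exact permutation p = 0.0831, adjusted 0.192) and r 0.470 (exact permutation p = 0.242, adjusted 0.302), of the same sign but not past the test. Tiles at 95% and over lay between 96.1 and 96.6%, with an r of 0.505 (permutation p = 0.139, adjusted 0.174), a rho of 0.491 (permutation p = 0.153, adjusted 0.191) and an r of 0.650 when both rats were left out (exact permutation p = 0.0783, adjusted 0.196).

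The number of tiles without a value, a sign of how well a library covered the genome, moved with the rat mean. HCR rat 19 lacked 2023 and LCR rat 12 19022, and a lower rat mean went with more such tiles by rank, with a rho of -0.733 (permutation p = 0.0201, adjusted 0.0335). Pearson's r was -0.691 (permutation p = 0.0278, adjusted 0.0652). Once HCR rat 19 and LCR rat 24 were left out, rho was -0.619 (exact permutation p = 0.115, adjusted 0.192) and r -0.470 (exact permutation p = 0.238, adjusted 0.302), again of the same sign but not past the test in 8 rats. Within the 6 LCR rats r was -0.454. The 4 HCR rats are too few for a correlation, but their numbers rose as the rat mean fell. They were 2023 in rat 19, 5295 in rat 11, 9592 in rat 1 and 10240 in rat 15. The LCR numbers followed it less closely. By rising rat mean they were 12040, 19022, 14734, 5287, 11348 and 6147 in rats 30, 12, 22, 26, 18 and 24. The averages were 6787.5 in HCR and 11429.7 in LCR. The study kept tiles with at least 3 values in each line, so more LCR than HCR rats could lack one. The tracking tiles themselves have a value in every rat. The part of coverage in their level was not tested.

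Between the lines, the tracking tiles averaged 47.9% ± 10.998 (SD, n = 4) in the HCR line. In the LCR line they averaged 40.04% ± 10.1 (SD, n = 6). HCR rats ran from 37.2 to 60.6% and LCR rats from 28.9 to 54.1%, and the lines overlapped over most of this range. The rat mean itself was 48.5% ± 2.39 (SD, 4 rats) for HCR against 46.6% ± 2.31 (SD, 6 rats) for LCR. The difference of single tiles had a median of 7.19 points, with a range of 0.447 to 22.3, and was above 0 in 386 of 386, against 70.4% of the candidates with a median of 3.54 points. Without HCR rat 19 the median over the tracking tiles was 3.28 points, above 0 in 319. That direction was set by the choice. The rat mean correlated with the line at 0.408, and a tile with an r of 0.9 to the rat mean can have a correlation with the line between -0.0305 and 0.765 only, which leaves room neither for a clear fall nor for a sharp separation in HCR. The correlations found were 0.0235 to 0.698. Accordingly limma on the percent values, with Benjamini-Hochberg adjustment over 176004 tiles, called 0 of the 386 at an adjusted p under 0.1 and 5 points, the background being 0.0858% of all tested tiles and 0.058% for those higher in HCR. With an unadjusted p under 0.005 together with 5 points there were 0 of 386, beside 1.03%. Of the 386, 3 had an unadjusted p under 0.05, with 3 of 3 higher in HCR, beside 7.18% of all tested tiles, 5.74% higher and 1.44% lower in HCR. The lines did not overlap in 0 tracking tiles and in 1.89% of the complete tiles tested. Nothing about these tiles can be read from such counts.

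What remained between HCR and LCR beside the rat mean was small, and tiles chosen for closeness to that mean leave little over. With the rat mean as a covariate in limma, the difference of the tracking tiles had a median of -0.683 points, with quartiles of -3.00 and 1.79, and it was above 0 in 173 and below in 213. Candidates had a median of -0.275 points with quartiles of -5.34 and 4.70. A narrower spread follows from the choice, since a tile close to the rat mean has little left over. At least 5 points remained in 73 tracking tiles, 23 higher and 50 lower in HCR, which is 18.9% of them against 50.1% of the candidates and 34.1% of all tested tiles, and the adjusted p was at least 0.493 in each of the 386. Limma called 0 of them, with a background of 0.0205% of all tested tiles and 0.0108% for those higher in HCR. With an unadjusted p under 0.005 together with 5 points there were 0, beside 0.955%. An unadjusted p under 0.05 was found in 7, 1 higher and 6 lower in HCR, beside 7.3% of all tested tiles, 3.88% higher and 3.41% lower. The choice limits these counts as well, so nothing about the tiles can be read from them. The median depended on the scaling of the rats: after quantile normalization it was 0.192 points. It was -0.185 points without HCR rat 15. With a rat mean free of candidate tiles as the covariate it was -1.88 points, above 0 in 122. With the number of missing tiles as the covariate it was 1.22 points, above 0 in 252. That number averaged 6787.5 in HCR and 11429.7 in LCR rats and was itself tied to the line through the filter on values per line. The direction left between the lines was thus not settled by these data.

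**Figure D5:**
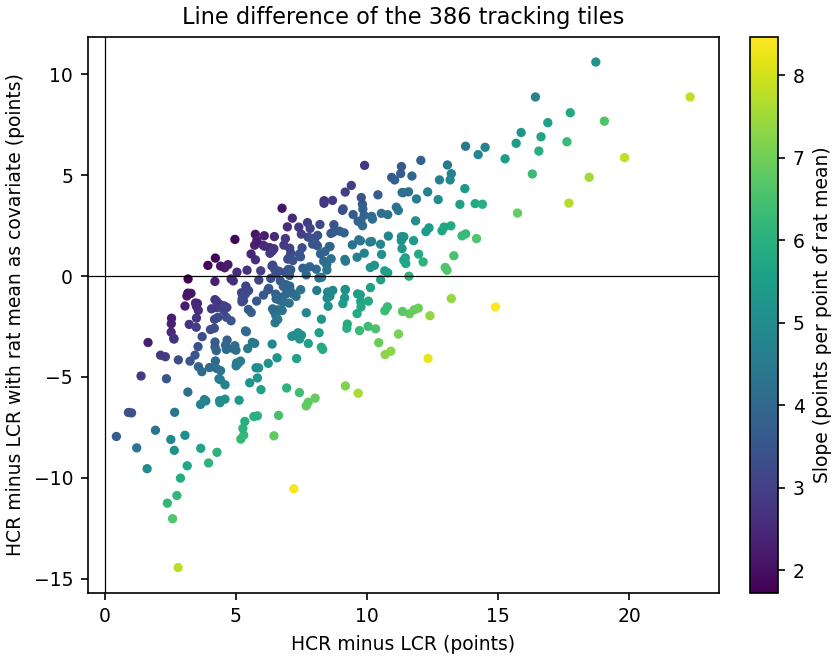
HCR minus LCR difference of each of the 386 tracking tiles without a covariate (horizontal axis, points) against the same difference with the rat mean as a covariate (vertical axis, points), colored by slope. All tiles lie right of 0, while 173 lie above and 213 below the horizontal line.

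Single tiles with much left over went both ways. The largest remaining rise was on chromosome 10 from 105335001 to 105336000, 12 kb from a promoter tile listed for Cep131, a centrosome gene, and Mir3594. It was at 48.3, 66.3, 45.0 and 72.3% in HCR rats 1, 11, 15 and 19, and in LCR rats at 30.5% at the lowest, 38.3% at the median and 49.2% at the highest. The difference of 18.7 points came to 10.6 points beside the rat mean, with a standard error of 5.40. The 4 HCR rats thus lay in the upper part of the LCR range or above it. On chromosome 15 from 20758001 to 20759000, 8.88 points remained, with HCR rats at 27.8, 42.6, 29.1 and 43.8% and LCR rats at 9.50 to 36.4%. The largest remaining fall was on chromosome 20 from 13254001 to 13255000. There HCR rats had 39.96, 47.2, 21.9 and 73.0%, and LCR rats ran from 14.8% over a median of 35.2% to 73.1%. The raw difference of 2.80 points turned to -14.5 points beside the rat mean, with a standard error of 5.86. It was followed by a tile on chromosome 6 from 10715001 to 10716000, where -12.03 points were left of a raw difference of 2.59, HCR rats having 47.7, 59.2, 39.0 and 81.3% and LCR rats 36.5 to 80.03%. In both of these tiles LCR rat 24 stood beside HCR rat 19. In the Pxdn tile 5.49 of 9.91 points remained, in Camta1 -0.999 of 8.59 and in Tenm2 -0.241 of 6.70. These tiles are the ends of a list of 386 and were picked for their size.

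Within each line the tracking tiles held their course. Among the 4 HCR rats their median slope was 4.32 and among the 6 LCR rats 4.05, and 386 of 386 had a slope above 0 in both lines, against 68.9% of the candidates. The r was at least 0.9 in 301 tiles within HCR and in 274 within LCR, and in 195 in both. Of the 41453 candidates, 7055 had such an r within HCR, 2295 within LCR and 515 in both. These values come from the rats that chose the tiles. The difference between the slopes of the lines was not tested.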

How the data were processed

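RRBS percent values of 10 rats were analysed. Before deposit the authors used Trim Galore 0.6.10 for trimming, Bismark (on Bowtie2, genome mRatBN7.2) for alignment and calls, and methylKit to remove CpGs of low or extreme coverage and to sum the rest in 1000 bp tiles. The deposited unit is percent methylation per tile and rat. Read counts are not part of the values, so the chi-square test of the study was not run, and no coverage minimum or counting interval was applied. Empty cells were taken as no value, and 28 tiles without variation were left out of the tests.

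For the lines, limma 3.58.1 (R 4.3.3) was fitted with its trend option, over 176004 tiles that varied and had at least 3 values per line, without a covariate and with the rat mean. A call needed an adjusted p under 0.1 (Benjamini-Hochberg) and 5 points. Correlations used 100000 permutations over 10 rats and all permutations over 8, 2-sided. Other steps ran in Python 3.11.15 with SciPy 1.17.1, NumPy 2.4.6, Matplotlib 3.10.9 and pandas 2.3.3. The fits were tested on simulated data.

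Genes came from the study's tile lists, of which one was used in its first 1999 lines, and its tiles were selected by the study on these rats. No genome of mRatBN7.2 was used, so CpG density and sequences of tiles are not given. Members, lists and tests were chosen with earlier results of these data known. Tiles were named by the highest r, the steepest and flattest slopes, the largest remaining differences in each direction and those next to the limit. The rule asked for a gene, which 1 tile had, so the condition was dropped after the values were seen, and landmarks were added then. Alternatives were other limits, measures of the rat mean, scales, scalings and covariates, and leaving out each rat.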

Additional observations from a re-analysis of the deposited data

How the results depend on the processing

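The depth behind each percentage is unknown, which limits every single-tile value. The number of tracking tiles was 1407 at an r of at least 0.85, 31 at 0.95, 2214 in LCR rats alone and 384 to 707 with 1 rat left out. It stayed within 1.5 times with Spearman's rho, other rat means, the logit scale, and other limits of level and range, but not with the same tiles: 476 were chosen by rho, 145 of them among the 386, and 260 on the logit scale, 182 among the 386. The median slope was 4.32 within HCR rats, 4.05 within LCR rats, 7.90 on a rat mean without candidate tiles, which itself moved less, and 4.15 to 4.25 with 1 rat left out. The median line difference was 3.28 to 10.6 points with 1 rat left out, 3.28 being without HCR rat 19. Beside the rat mean it was -0.698 to -0.185 points with 1 rat left out, -0.185 being without HCR rat 15, -0.145 points by medians of the lines and 0.192 points after quantile normalization. In settings added after seeing the data it was -1.88 points with a rat mean without candidate tiles and 1.22 points with missing tiles per rat as covariate. The sign thus turned under quantile normalization and with missing tiles. In another such setting, with rat means set equal, the plain difference was 5.28 points, above 0 in 379. Setting them equal takes the same points from every tile of a rat. The difference of each tracking tile therefore fell by 1.91 points whatever its slope, and the setting cannot remove the rat mean from steeper tiles. Without HCR rat 19 and LCR rat 24, also added then, rho with the rat mean was 0.667 for tiles under 5%, -0.619 for missing tiles and -0.0952 for mitochondrial tiles. Limma's 151 calls over all tiles became 57 on the logit scale, 262 without the trend, 55 at an adjusted p under 0.05 and 22 to 100 with 1 rat left out, each of the 10 rats lowering the number. With rat means set equal there were 139, 66 higher and 73 lower in HCR, against 102 and 49. With the rat mean as a covariate, 36 calls became 16 on the logit scale, 152 without the trend, 98 in tiles with a value in every rat and 12 at an adjusted p under 0.05. They became 17 with a rat mean without candidate tiles, 7 when missing tiles per rat replaced the rat mean, and 1 to 17 with 1 rat left out. In each of these settings 0 tracking tiles were called. The causes of these changes were not tested. No paired analysis was possible because the lines share no rat number.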
